A study of Drosophila melanogaster with 3 samples.

Results

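The 9 genes described here act in germ line stem cells or in the PIWI-interacting RNA (piRNA) pathway: vas, nos, tud, aub, AGO3, piwi, bam, bgcn and zpg. They were taken by exact match of the gene symbol, each has 1 row among the 16509 genes counted, and all 9 were found. RNA was compared between Dcg > Hpo larvae (Hpo overexpression), Dcg > Hpo-RNAi larvae (Hpo knockdown) and Dcg/+ larvae (the driver alone, as control), with 1 library per genotype and the Dcg-Gal4 driver present in all of them. The study used Dcg-Gal4 as a fat body driver, to alter Hpo, the kinase at the head of the Hippo pathway, in that organ. Hpo was not directed to the germ line. Activity of the driver in other cells was not tested here. The study's methods and the sample titles give larval fat tissue as the source, whereas the extraction protocol in the labels names 30 adult heads. The methods describe fat bodies pooled from many larvae, whose sex, and whether gonads were removed, are not given in the sources used here.

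In flies, germ line stem cells of the testis and ovary divide to renew themselves and to give daughters that differentiate. Nos and Pum repress translation of differentiation genes in the stem cell, and Bam and Bgcn act together in its daughters to let differentiation start. piRNAs are small RNAs bound by the PIWI proteins Piwi, Aub and AGO3, and they silence transposable elements in the gonads. Aub and AGO3 amplify piRNAs by slicing transcripts in the nuage, a structure around germ cell nuclei, and Piwi carries piRNAs into the nucleus to repress transcription. The larval gonads lie embedded in the fat body.

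The libraries held 23227940 counts (Dcg > Hpo), 23524682 counts (Dcg > Hpo-RNAi) and 21918672 counts (Dcg/+), and 4363, 3548 and 3201 genes had 0 counts. The altered gene, hpo, had 11568 counts in Dcg > Hpo, 182 in Dcg > Hpo-RNAi and 289 in Dcg/+, so its ratio to Dcg/+ was 37.8 (33.6 to 42.6) for Dcg > Hpo and 0.587 (0.485 to 0.709) for Dcg > Hpo-RNAi. A list of 10 genes of the larval fat body took 19.4% of the counts in Dcg > Hpo, 18.4% in Dcg > Hpo-RNAi and 18.8% in Dcg/+. Levels are given as counts, or as counts scaled to the library total (CPM). Each ratio below is that of a gene's share of all counts in one library to its share in another. The interval in parentheses is the exact Clopper-Pearson 95% interval of the split of its counts between them, which covers counting error only. A gene was tested with at least 10 counts in either library, and was called when its ratio was at least 2 with an interval above 1, or at most 0.5 with an interval below 1. By this rule hpo was called higher in Dcg > Hpo against Dcg/+ and was not called in Dcg > Hpo-RNAi against Dcg/+. With 1 library per genotype there is no replicate check, so every difference is one between these libraries and none has a p-value. The reads come from bulk tissue, in which fewer cells of a type and less RNA per cell cannot be told apart.

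vas and bgcn were far lower in the Dcg > Hpo library than in the Dcg/+ library, and near the Dcg/+ level in the Dcg > Hpo-RNAi library. AGO3 was also called lower in Dcg > Hpo, and bam was called lower in Dcg > Hpo-RNAi. Of the 9 genes, 8 had enough counts to be tested. Between Dcg > Hpo and Dcg/+, 0 were called higher and 3 were called lower, where 18.2% of all 11834 genes tested were called higher and 22.8% lower. Between Dcg > Hpo-RNAi and Dcg/+, 0 of 8 were called higher and 1 lower, where 7.81% of 11521 genes tested were called higher and 9.09% lower. Counts this small do not set the 9 genes apart from all genes tested. The median log2 ratio of the 8 tested genes was −0.43 in Dcg > Hpo against Dcg/+, beside 0.09 over all genes tested, and −0.42 in Dcg > Hpo-RNAi against Dcg/+, beside 0.08. The −0.43 depended on the processing, and was −0.0067 with quantile normalization and −0.128 with a minimum of 50 counts.

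**Figure D1:**
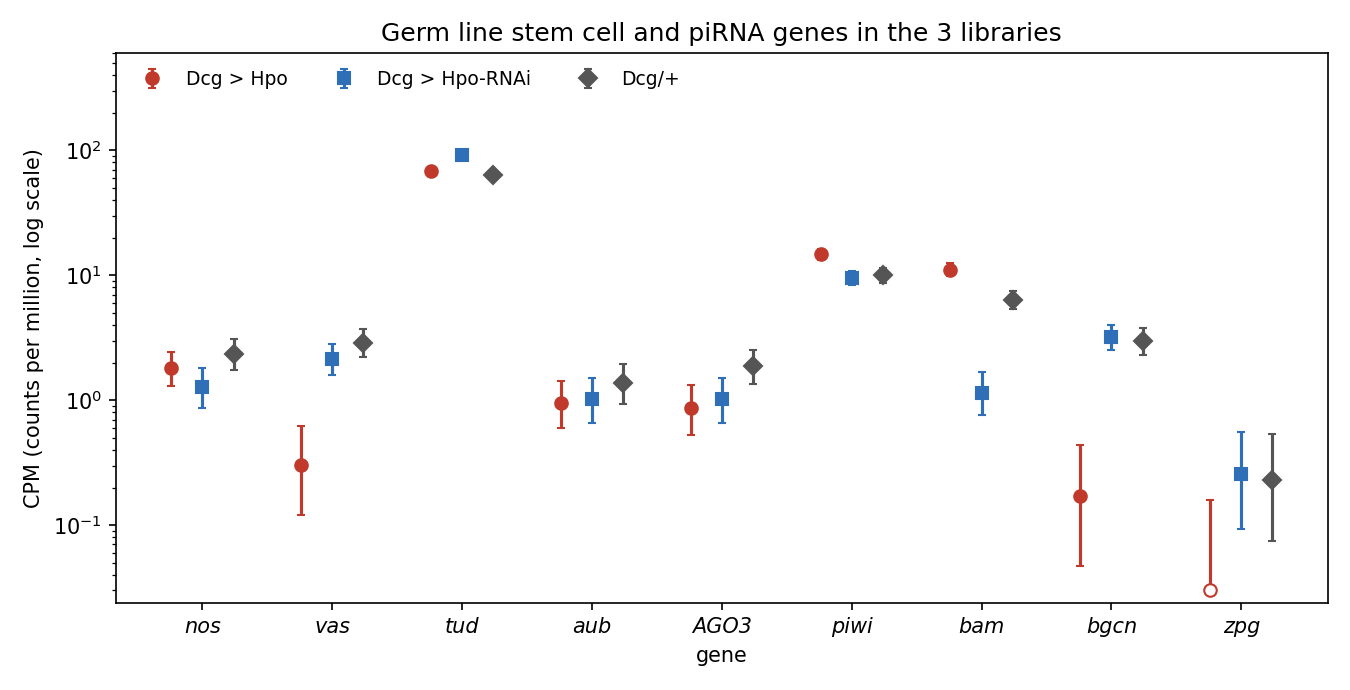
CPM (log scale) of the 9 genes in Dcg > Hpo (circles), Dcg > Hpo-RNAi (squares) and Dcg/+ (diamonds), 1 library each, with exact Poisson 95% intervals as bars. vas lay at 0.301 and bgcn at 0.172 CPM in Dcg > Hpo, below both other libraries, while the bam values of the 3 libraries lay apart from each other. The open circle for zpg stands for 0 counts and is drawn at the bottom of the axis.

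The first group comprises vas, nos and tud, maternal genes from which embryos form their germ cells. vas encodes a DEAD-box RNA helicase of the nuage and is the usual marker of germ cells. It had 7 counts in Dcg > Hpo, 50 in Dcg > Hpo-RNAi and 63 in Dcg/+. Dcg > Hpo lay alone at the bottom, and the intervals of the other two libraries overlapped. The ratio to Dcg/+ was 0.105 (0.0405 to 0.229) in Dcg > Hpo, a value 9.54-fold lower (4.37 to 24.7), and 0.739 (0.50 to 1.09) in Dcg > Hpo-RNAi. Of all genes tested between Dcg > Hpo and Dcg/+, 14.9% had a lower log2 ratio than vas, so a difference of this size was common there.

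nos, which encodes a translational repressor that works with Pum and keeps stem cells from differentiating, had 42 counts in Dcg > Hpo, 30 in Dcg > Hpo-RNAi and 51 in Dcg/+. Neighbours in the order of the 3 libraries had overlapping intervals. The ratio to Dcg/+ was 0.777 (0.504 to 1.19) for Dcg > Hpo, and 0.548 (0.337 to 0.877) for Dcg > Hpo-RNAi, and neither was called. tud encodes a scaffold of Tudor domains that binds methylated arginines of Aub. It had 1573 counts in Dcg > Hpo, 2136 in Dcg > Hpo-RNAi and 1385 in Dcg/+. tud was highest in Dcg > Hpo-RNAi, with a ratio to Dcg/+ of 1.44 (1.34 to 1.54), and its ratio in Dcg > Hpo was 1.07 (0.996 to 1.15). Neither was called, and the second lay below 1 with the other 3 scalings tried (0.948, 0.979 and 0.903).

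The next group holds the 3 PIWI proteins, of which only AGO3 was called, in Dcg > Hpo against Dcg/+. piwi encodes the nuclear PIWI protein, which is also made in somatic cells of the gonad. It had 341 counts in Dcg > Hpo, 224 in Dcg > Hpo-RNAi and 219 in Dcg/+. Dcg > Hpo lay above the other two libraries, whose intervals overlapped, with a ratio to Dcg/+ of 1.47 (1.24 to 1.75), and the ratio of Dcg > Hpo-RNAi was 0.953 (0.788 to 1.15). aub, for one of the cytoplasmic PIWI proteins, had 22 counts in Dcg > Hpo, 24 in Dcg > Hpo-RNAi and 30 in Dcg/+. Its ratios to Dcg/+, 0.692 (0.380 to 1.24) for Dcg > Hpo and 0.745 (0.417 to 1.32) for Dcg > Hpo-RNAi, had intervals that include 1.

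AGO3, for the partner of Aub in piRNA amplification, had 20 counts in Dcg > Hpo, 24 in Dcg > Hpo-RNAi and 41 in Dcg/+. It was lower in both, with a ratio to Dcg/+ of 0.460 (0.255 to 0.804) in Dcg > Hpo, which was called, and of 0.545 (0.315 to 0.924) in Dcg > Hpo-RNAi, which was not. The Poisson intervals of neighbouring libraries in its order overlapped, and AGO3 was not called with quantile normalization, a 3-fold limit or a minimum of 50 counts. AGO3 spans chromosome 3L from 23554593 to 23689640 on dm6, of which exons cover 3182 bases, and 106 annotated transposable elements lie within the gene. Whether reads of such elements add to its count was not tested.

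The last group comprises bam, bgcn and zpg. bam encodes the differentiation factor of germ line daughter cells. It had 258 counts in Dcg > Hpo, 27 in Dcg > Hpo-RNAi and 140 in Dcg/+, and was the only one of the 9 genes whose 3 libraries had intervals apart from each other. The ratio to Dcg/+ was 1.74 (1.41 to 2.15) in Dcg > Hpo, under the 2-fold needed for a call, and 0.180 (0.114 to 0.273) in Dcg > Hpo-RNAi, which is 5.57-fold lower. Only 2.62% of genes tested between Dcg > Hpo-RNAi and Dcg/+ had a log2 ratio lower than bam.

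bgcn, for the partner of Bam, a protein related to RNA helicases, had 4 counts in Dcg > Hpo, 75 in Dcg > Hpo-RNAi and 65 in Dcg/+. The Dcg > Hpo library stood apart, with a ratio to Dcg/+ of 0.0581 (0.0154 to 0.156), a value 17.2-fold lower (6.41 to 65.1). The ratio in Dcg > Hpo-RNAi was 1.08 (0.761 to 1.52). zpg encodes the innexin that joins germ cells to the somatic cells around them. It had 0 counts in Dcg > Hpo, 6 in Dcg > Hpo-RNAi and 5 in Dcg/+. The 0 counts allow up to 0.159 CPM (exact Poisson interval), and the interval of the ratio to Dcg/+, 0 to 1.03, includes 1. zpg stayed below 10 counts in every library and was not tested.

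piwi, aub and AGO3 summed to 383 counts in Dcg > Hpo, 272 in Dcg > Hpo-RNAi and 290 in Dcg/+. Their ratio to Dcg/+ was 1.25 (1.07 to 1.46) for Dcg > Hpo and 0.874 (0.738 to 1.03) for Dcg > Hpo-RNAi. All 9 genes together took 0.00976% of the counts in Dcg > Hpo, 0.0110% in Dcg > Hpo-RNAi and 0.00912% in Dcg/+, and tud supplied most of these.

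**Figure D2:**
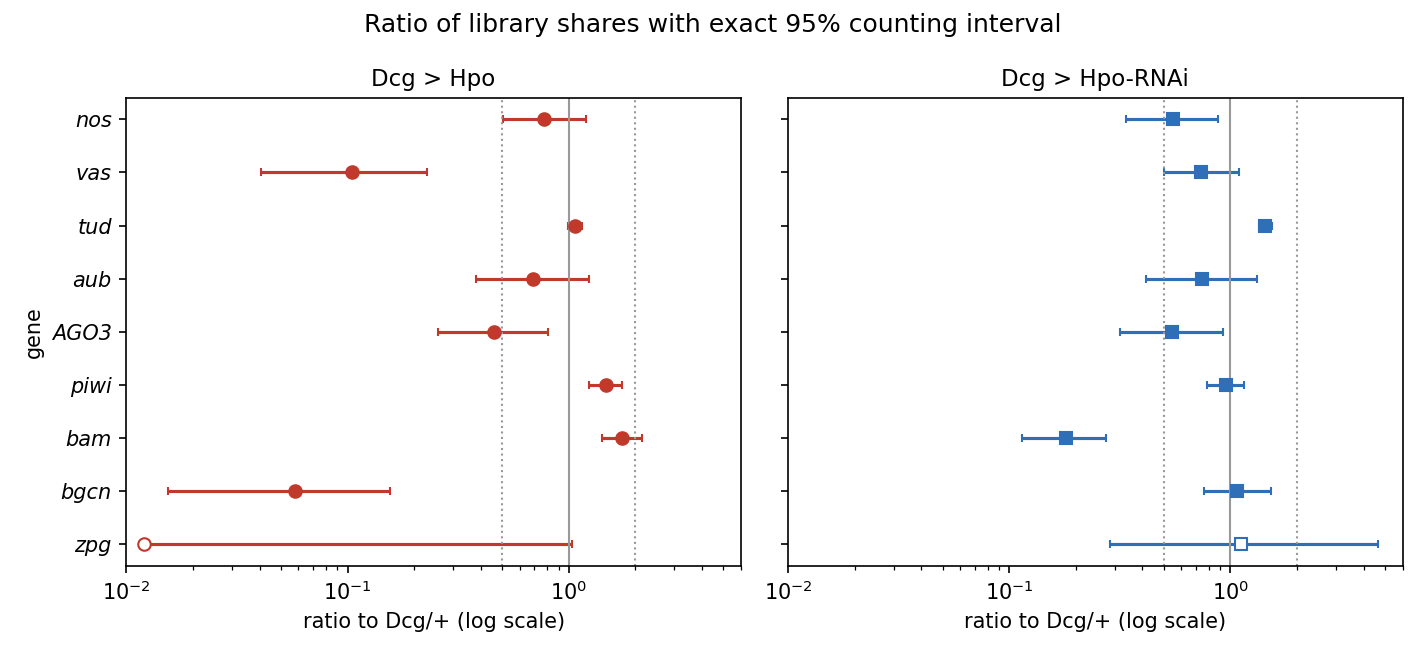
Ratio of each gene's library share to that in Dcg/+ (log scale), for Dcg > Hpo (left) and Dcg > Hpo-RNAi (right), with exact 95% counting intervals. The solid line marks 1 and the dotted lines the 2-fold limits; zpg, which was not tested, is drawn open, and its ratio of 0 in Dcg > Hpo stands near the left edge. On the left vas, bgcn and AGO3 lie below 0.5 (0.105, 0.0581 and 0.460), and on the right bam does (0.180).

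Between both altered genotypes, bam was 9.68-fold higher (6.50 to 15.0) in Dcg > Hpo than in Dcg > Hpo-RNAi, and vas and bgcn were lower, with ratios of 0.142 (0.0542 to 0.314) and 0.0540 (0.0143 to 0.144). These were the 1 higher and 2 lower calls among the 8 genes tested, where 19.4% of all 11906 genes tested were called higher and 24.3% lower. piwi had a ratio of 1.54 (1.30 to 1.83), nos of 1.42 (0.867 to 2.35), aub of 0.928 (0.496 to 1.73) and AGO3 of 0.844 (0.442 to 1.59). tud was lower in Dcg > Hpo than in Dcg > Hpo-RNAi, with a ratio of 0.746 (0.698 to 0.796). The 3 comparisons share libraries and are not independent of each other.

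QuantSeq reads the 3′ ends of transcripts, so a gene whose 3′ end overlaps another gene can share its reads if the counting did not use strand. The use of strand is not given in the sources used here. Among neighbouring genes on opposite strands with overlapping exons, 12 of 1903 (0.631%) had identical counts in all 3 libraries, such as CG31229 and CR45028 with 313, 401 and 420 counts each (Dcg > Hpo, Dcg > Hpo-RNAi, Dcg/+). Among overlapping genes without exon overlap, 0 of 1091 did so. The same reads may thus stand for both genes where exons overlap.

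Of the 9 genes, 4 have a 3′ end that overlaps exons of a gene on the opposite strand: bam, nos, piwi and aub. bam lies on chromosome 3R from 25243039 to 25245109 (dm6, minus strand), and 224 of its exonic bases at the 3′ end overlap CG11854. CG11854 had 500 counts in Dcg > Hpo, 31 in Dcg > Hpo-RNAi and 213 in Dcg/+. It thus had the same order of libraries as bam, with ratios to Dcg/+ of 2.22 (1.88 to 2.61) for Dcg > Hpo and 0.136 (0.0899 to 0.198) for Dcg > Hpo-RNAi. Whether the bam counts come from bam or from CG11854 cannot be told apart, and without the overlapping genes no call was left in Dcg > Hpo-RNAi against Dcg/+.

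nos, on chromosome 3R from 19157238 to 19160202 (plus strand), shares 104 exonic bases at its 3′ end with Nsun5, for an RNA methyltransferase. Nsun5 had 42 counts in Dcg > Hpo, 28 in Dcg > Hpo-RNAi and 53 in Dcg/+. These are within 2 counts of those of nos in every library. The values of nos therefore cannot be told apart from those of Nsun5.

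piwi, on chromosome 2L from 10982205 to 10987420 (minus strand), overlaps 191 exonic bases of SCAR, for a WASp-family regulator of actin. SCAR had 160 counts in Dcg > Hpo, 270 in Dcg > Hpo-RNAi and 103 in Dcg/+. In Dcg > Hpo against Dcg/+, the ratio of SCAR was 1.47 (1.14 to 1.90), as was that of piwi, and whether reads of SCAR add to the higher piwi count cannot be told apart. SCAR had a ratio of 2.44 (1.94 to 3.10) in Dcg > Hpo-RNAi against Dcg/+, beside 0.953 for piwi. aub, on chromosome 2L from 10997819 to 11001476 (minus strand), overlaps 79 exonic bases of TTLL4A, for a tubulin ligase-like enzyme. TTLL4A had 35 counts in Dcg > Hpo, 163 in Dcg > Hpo-RNAi and 179 in Dcg/+, and its ratio to Dcg/+ of 0.185 for Dcg > Hpo lay outside the interval of aub, while that of 0.848 for Dcg > Hpo-RNAi lay inside it.

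**Figure D3:**
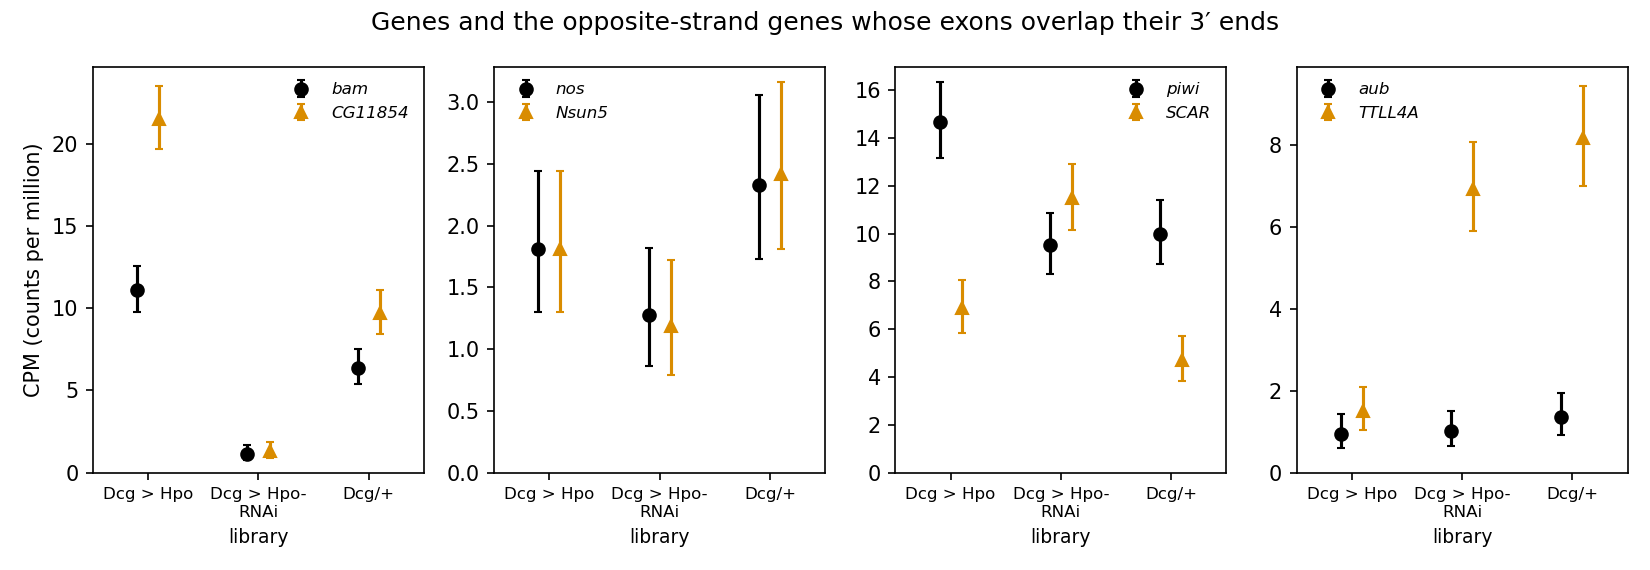
CPM in the 3 libraries (x axis) of bam, nos, piwi and aub (black circles) and of the opposite-strand genes whose exons overlap their 3′ ends (orange triangles), with exact Poisson 95% intervals. bam and CG11854 share the order of libraries, with 258, 27 and 140 counts beside 500, 31 and 213, and nos and Nsun5 nearly coincide. piwi and SCAR are both higher in Dcg > Hpo than in Dcg/+ (ratio 1.47 each) but differ in Dcg > Hpo-RNAi, and aub lacks the low value of TTLL4A in Dcg > Hpo.

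vas, bgcn, AGO3, zpg and tud share no exonic bases with a gene on the opposite strand. bgcn, on chromosome 2R from 23853270 to 23858921 (minus strand), overlaps the span of Pym, a factor that removes exon junction complexes, without sharing exons. Pym had 473 counts in Dcg > Hpo, 323 in Dcg > Hpo-RNAi and 183 in Dcg/+. The ratio of Pym to Dcg/+ in Dcg > Hpo was 2.44 (2.05 to 2.91), beside the 0.0581 of bgcn. vas, on chromosome 2L from 15061656 to 15074311 (plus strand), holds vig, of the RNA interference complex, without exon overlap, and vig had 1084 counts in Dcg > Hpo, 782 in Dcg > Hpo-RNAi and 669 in Dcg/+. vas also shares 563 exonic bases with solo on the same strand, which has no row of its own, so reads of these shared bases cannot be told apart. The 3′ end of vas lies beyond solo. zpg, on chromosome 3L from 6604366 to 6606032 (minus strand), lies within Rexo5 without exon overlap. tud, on chromosome 2R from 21183322 to 21192913 (plus strand), overlaps no annotated gene. The altered gene, hpo, shares 130 exonic bases at its 3′ end with Rep on the opposite strand. Rep had 172 counts in Dcg > Hpo, 114 in Dcg > Hpo-RNAi and 152 in Dcg/+, a ratio of 0.699 (0.543 to 0.897) in Dcg > Hpo-RNAi against Dcg/+. Whether reads of Rep add to the hpo counts was not tested.

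The genes whose pattern over the 3 libraries was nearest to each member were found by Euclidean distance between centred log2(CPM + 1) values, among 9453 genes with at least 50 counts in 1 library. The distances describe likeness over 3 values only. Nearest to bgcn were ms(2)34Fe (1, 65 and 56 counts in Dcg > Hpo, Dcg > Hpo-RNAi and Dcg/+, distance 0.0104), Tim17a2 (0, 61 and 53 counts, distance 0.0105) and CG18109 (0, 61 and 54 counts, distance 0.0251). All 3, like bgcn, were at or near 0 in Dcg > Hpo. Nearest to vas were CG43777, CG15651 and Twdlalpha, at distances of 0.0287, 0.0358 and 0.0404, and Twdlalpha had 7 counts in Dcg > Hpo, 52 in Dcg > Hpo-RNAi and 62 in Dcg/+.

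Nearest to bam was Pgd, which encodes an enzyme of the pentose phosphate pathway, with 1176 counts in Dcg > Hpo, 208 in Dcg > Hpo-RNAi and 644 in Dcg/+ (distance 0.112). CG31769 and CG7589 followed at 0.143 and 0.144, and CG11854, which overlaps bam, lay at 0.556. nos was nearest to PGRP-SD, Ace and HmgZ, piwi to CG1434, CG9272 and CG7971, and tud to alph, CG4042 and Cdc37. aub, AGO3 and zpg had under 50 counts in every library and were left out.

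Of 22 genes of piRNA biogenesis and the nuage besides the members, 20 were tested in Dcg > Hpo against Dcg/+, of which 6 had a lower and 0 a higher call, and the median log2 ratio was −0.42. Over all genes tested in this comparison, 22.8% were called lower and 18.2% higher. With quantile normalization 1 was called lower. squ, which acts in the piRNA pathway of the germ line, was lowest, with 8 counts in Dcg > Hpo, against 79 in Dcg/+ (0.0956, 0.0399 to 0.198). SoYb, for a Tudor-domain protein, had 2 counts in Dcg > Hpo, against 14 in Dcg/+ (0.135, 0.0149 to 0.587). squ shares 223 exonic bases with grp, and SoYb shares 247 with CG31875, in each case on the same strand and with the 3′ end covered. grp had 266 counts in Dcg > Hpo, 151 in Dcg > Hpo-RNAi and 208 in Dcg/+. Strand cannot tell apart reads of these shared bases. krimp, for a Tudor-domain protein that binds AGO3, had 8 counts in Dcg > Hpo, 15 in Dcg > Hpo-RNAi and 27 in Dcg/+ (0.280, 0.110 to 0.633 for Dcg > Hpo). Gasz, for a scaffold on mitochondria, had 9 counts in Dcg > Hpo, against 28 in Dcg/+ (0.303, 0.126 to 0.661). mael (0.390, 0.216 to 0.678) and qin, for a Tudor-domain protein (0.461, 0.260 to 0.794), were the other calls.

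spn-E, for a nuage helicase, had 11 counts in Dcg > Hpo, 12 in Dcg > Hpo-RNAi and 12 in Dcg/+. zuc, for the nuclease that cuts piRNA precursors loaded into Piwi, had 177 counts in Dcg > Hpo, 52 in Dcg > Hpo-RNAi and 87 in Dcg/+. Its 67 exonic bases shared with CG34163 lie at its 3′ end, and CG34163 had 724 counts in Dcg > Hpo, 236 in Dcg > Hpo-RNAi and 332 in Dcg/+. armi, for a helicase that works with Piwi, had 38 counts in Dcg > Hpo, 33 in Dcg > Hpo-RNAi and 64 in Dcg/+. It shares 4145 exonic bases with CG46463 on the same strand. csul, for the enzyme that methylates the arginines Tud binds, had 100 counts in Dcg > Hpo, 59 in Dcg > Hpo-RNAi and 74 in Dcg/+. vls, for the partner of that enzyme, had 178 counts in Dcg > Hpo, 157 in Dcg > Hpo-RNAi and 126 in Dcg/+, and neither gene was called against Dcg/+. vls in turn overlaps lok at its 3′ end, which had 178 counts in Dcg > Hpo, 153 in Dcg > Hpo-RNAi and 117 in Dcg/+. Of the 22 genes, 12 share exonic bases with another annotated gene.

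In Dcg > Hpo-RNAi against Dcg/+, 3 of 21 tested genes of this list had a lower and 0 a higher call, where 9.09% of all genes tested were called lower, and the median was −0.09. They were Gasz with 5 counts in Dcg > Hpo-RNAi, against 28 in Dcg/+ (0.166, 0.0502 to 0.436), daed (0.287) and armi (0.480, 0.306 to 0.742). zuc was at 0.557 (0.387 to 0.794). Between Dcg > Hpo and Dcg > Hpo-RNAi, 6 of 19 had a lower and 1 a higher call, where 24.3% of all genes tested were called lower and 19.4% higher. The median was −0.51, and 2 were lower with quantile normalization. zuc was the higher one, at 3.45 (2.52 to 4.79), and SoYb (0.101), BoYb (0.156) and squ (0.159) were the lowest.

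Of 12 genes for piRNA source loci and the silencing partners of Piwi, 10 were tested. There was 1 higher and 1 lower call in Dcg > Hpo against Dcg/+ (median 0.43), where 18.2% of all genes tested were higher and 22.8% lower. In Dcg > Hpo-RNAi against Dcg/+, 0 were called in either direction (median −0.19), where 7.81% of all genes tested were higher and 9.09% lower. nxf2, which acts with Panx downstream of Piwi, had 44 counts in Dcg > Hpo, 35 in Dcg > Hpo-RNAi and 17 in Dcg/+, a ratio of 2.44 (1.37 to 4.56) in Dcg > Hpo. boot had 16 counts in Dcg > Hpo, 45 in Dcg > Hpo-RNAi and 46 in Dcg/+ (0.328, 0.173 to 0.591 in Dcg > Hpo). It shares 388 exonic bases with Nadk2 on the same strand, and Nadk2 covers its 3′ end. Nadk2 had 749 counts in Dcg > Hpo, 1514 in Dcg > Hpo-RNAi and 1321 in Dcg/+. del and cuff, which act in transcription of piRNA clusters, were 2.88-fold and 2.01-fold higher in Dcg > Hpo than in Dcg > Hpo-RNAi. del had 111 counts in Dcg > Hpo, 39 in Dcg > Hpo-RNAi and 64 in Dcg/+. pths, whose exons overlap the 3′ end of del on the other strand, had 423, 142 and 195 counts in the same order. cuff had 4333 counts in Dcg > Hpo, 2186 in Dcg > Hpo-RNAi and 3155 in Dcg/+. ERp60, whose exons overlap its 3′ end on the other strand, had 10598 counts in Dcg > Hpo, 5075 in Dcg > Hpo-RNAi and 7890 in Dcg/+. Of the 12 genes, 8 share exonic bases with another gene.

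Of 14 genes of stem cell differentiation and translational control found, 13 were tested, with 2 higher and 3 lower calls in Dcg > Hpo against Dcg/+ (median −0.28, and 5 lower with TMM scaling). These counts lie near the 18.2% higher and 22.8% lower over all genes tested. In Dcg > Hpo-RNAi against Dcg/+, 1 was higher and 1 was lower (median 0.17), where 7.81% of all genes tested were higher and 9.09% lower. orb, for a regulator of translation in germ cells, had 15 counts in Dcg > Hpo, 1281 in Dcg > Hpo-RNAi and 1062 in Dcg/+, a ratio of 0.0133 (0.00743 to 0.0221) in Dcg > Hpo. Phf7, which acts in the male germ line, had 22 counts in Dcg > Hpo, 131 in Dcg > Hpo-RNAi and 164 in Dcg/+ (0.127, 0.0772 to 0.198 in Dcg > Hpo). stwl, needed to keep female germ line stem cells, had 3 counts in Dcg > Hpo, 48 in Dcg > Hpo-RNAi and 19 in Dcg/+, a ratio of 0.149 (0.0282 to 0.506) for Dcg > Hpo and of 2.35 (1.36 to 4.24) for Dcg > Hpo-RNAi. orb and Phf7 share with vas and bgcn a low value in Dcg > Hpo alone.

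The higher calls in Dcg > Hpo were brat, a translational repressor that also acts in neural stem cells, with 1005 counts in Dcg > Hpo, 157 in Dcg > Hpo-RNAi and 126 in Dcg/+ (7.53, 6.25 to 9.13), and ovo with 65 counts in Dcg > Hpo, 26 in Dcg > Hpo-RNAi and 15 in Dcg/+ (4.09, 2.31 to 7.72). pum, for the partner of Nos, had 2914 counts in Dcg > Hpo, 1322 in Dcg > Hpo-RNAi and 1499 in Dcg/+, a ratio of 1.83 in Dcg > Hpo. mei-P26 and tut, whose proteins act with Bam and Bgcn, differed from each other. mei-P26 had 228 counts in Dcg > Hpo, 196 in Dcg > Hpo-RNAi and 141 in Dcg/+ (1.53, 1.23 to 1.90 in Dcg > Hpo), and tut had 27 counts in Dcg > Hpo, 17 in Dcg > Hpo-RNAi and 46 in Dcg/+ (0.554, 0.331 to 0.910, for Dcg > Hpo and 0.344, 0.185 to 0.612, for Dcg > Hpo-RNAi). otu, an ovarian gene, had 0 counts in every library.

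Of the genes of the germ plasm and of primordial germ cells, wun2, which guides migrating germ cells from the soma of the embryo, was called higher in Dcg > Hpo, with 167 counts in Dcg > Hpo, 18 in Dcg > Hpo-RNAi and 15 in Dcg/+ (10.5, 6.19 to 19.2 for Dcg > Hpo). In Dcg > Hpo-RNAi against Dcg/+, 1 of 5 tested genes was called lower and 0 higher (median 0.23). Over all genes tested there, 9.09% were called lower and 7.81% higher. The lower call was pgc, which represses transcription in pole cells, with 89 counts in Dcg > Hpo, 26 in Dcg > Hpo-RNAi and 72 in Dcg/+, a ratio of 0.336 (0.206 to 0.533) in Dcg > Hpo-RNAi. osk had 0 counts in every library.

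Markers of male germ cells moved with vas and bgcn in the Dcg > Hpo library. Over all genes tested between Dcg > Hpo and Dcg/+, 22.8% were called lower and 18.2% higher. Of 14 regulators of transcription in spermatocytes, 13 had a lower and 0 a higher call in this comparison. The 14 regulators summed to 11.1 CPM in Dcg > Hpo, 45.0 in Dcg > Hpo-RNAi and 61.4 in Dcg/+. Of these, 5 (aly, can, sa, nht and sunz) were at 0 counts in Dcg > Hpo. aly, of the complex that turns on meiotic genes, had 0 counts in Dcg > Hpo, 79 in Dcg > Hpo-RNAi and 102 in Dcg/+. The interval of its ratio to Dcg/+ in Dcg > Hpo was 0 to 0.0348. With its 0 set to a floor of 3 counts, aly was 36.0-fold lower, which is not a bound of that interval. Of 18 genes of spermatids and sperm, 17 had a lower and 0 a higher call in the same comparison. They summed to 21.3 CPM in Dcg > Hpo, 693.5 in Dcg > Hpo-RNAi and 607.7 in Dcg/+, and c-cup was at 0 counts in Dcg > Hpo.

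The median log2 ratio in Dcg > Hpo against Dcg/+ was −4.93 for the spermatocyte list (−3.65 with genes at 0 set to the floor) and −5.68 for the sperm list (−5.67), beyond the −0.43 of the 8 tested members. In Dcg > Hpo-RNAi against Dcg/+, 1 of 14 spermatocyte genes and 0 of 18 sperm genes were called lower, with medians of −0.26 and 0.21. In either list 0 were called higher. Over all genes tested in that comparison, 9.09% were called lower and 7.81% higher. The amount of testis in each preparation is not given, and its part in the values of vas, bgcn and the other members was not tested.

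Of 14 tested markers of the gonad soma, 5 had a higher and 2 (eya and zfh1) a lower call in Dcg > Hpo against Dcg/+ (median 0.78). In Dcg > Hpo-RNAi against Dcg/+, 2 of 13 had a higher and 2 a lower call (median 0.36). The shares of all genes tested there were 7.81% higher and 9.09% lower. tj, which marks somatic cells of the gonad, had 27 counts in Dcg > Hpo, 18 in Dcg > Hpo-RNAi and 30 in Dcg/+ (0.849, 0.486 to 1.48 in Dcg > Hpo). eya had 5 counts in Dcg > Hpo, 25 in Dcg > Hpo-RNAi and 35 in Dcg/+ (0.135, 0.0412 to 0.346 in Dcg > Hpo), and like vas was called lower in that library alone. zfh1 had 48 counts in Dcg > Hpo, 37 in Dcg > Hpo-RNAi and 119 in Dcg/+, and was called lower in both (0.381, 0.266 to 0.536, for Dcg > Hpo and 0.290, 0.195 to 0.422, for Dcg > Hpo-RNAi). The higher calls in Dcg > Hpo included hh, bab2 and bab1, with ratios to Dcg/+ of 4.34, 3.65 and 2.32. The others were Fas3 with 311 counts in Dcg > Hpo, 169 in Dcg > Hpo-RNAi and 28 in Dcg/+, and esg with 17 counts in Dcg > Hpo and 0 in the other libraries. hh and Fas3 were also the 2 higher calls in Dcg > Hpo-RNAi against Dcg/+, with ratios of 4.29 and 5.62. Fas3 and esg are also expressed outside the gonad. Whether the counts of any gene of this list, eya and zfh1 included, come from cells of the gonad was not tested.

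Of 7 markers of sex and dosage compensation, 2 were called higher (msl-2 and fru) and 2 lower (roX1 and roX2) in Dcg > Hpo against Dcg/+. Over all genes tested there, 18.2% were called higher and 22.8% lower. The median log2 ratio of the 7 markers was 0.90, and with TMM scaling 1 was called higher. roX1 and roX2 were also the 2 lower calls in Dcg > Hpo-RNAi against Dcg/+, where 0 were called higher (median 0.14). Over all genes tested there, 7.81% were called higher and 9.09% lower. roX1 and roX2 are RNAs that coat the X chromosome of males, and msl-2 encodes a protein of the same complex. msl-2 had a ratio of 2.12 (1.15 to 4.10) for Dcg > Hpo, and fru one of 3.02 (2.53 to 3.61). roX1 had 2514 counts in Dcg > Hpo, 3266 in Dcg > Hpo-RNAi and 7467 in Dcg/+, with ratios to Dcg/+ of 0.318 (0.304 to 0.332) for Dcg > Hpo and 0.408 (0.391 to 0.425) for Dcg > Hpo-RNAi. roX2 had ratios of 0.270 (0.106 to 0.607) for Dcg > Hpo and 0.433 (0.206 to 0.863) for Dcg > Hpo-RNAi. vas and bgcn were called lower in Dcg > Hpo and in neither direction in Dcg > Hpo-RNAi. The share of male larvae per library is not given, and its part in these values was not tested.

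**Figure D4:**
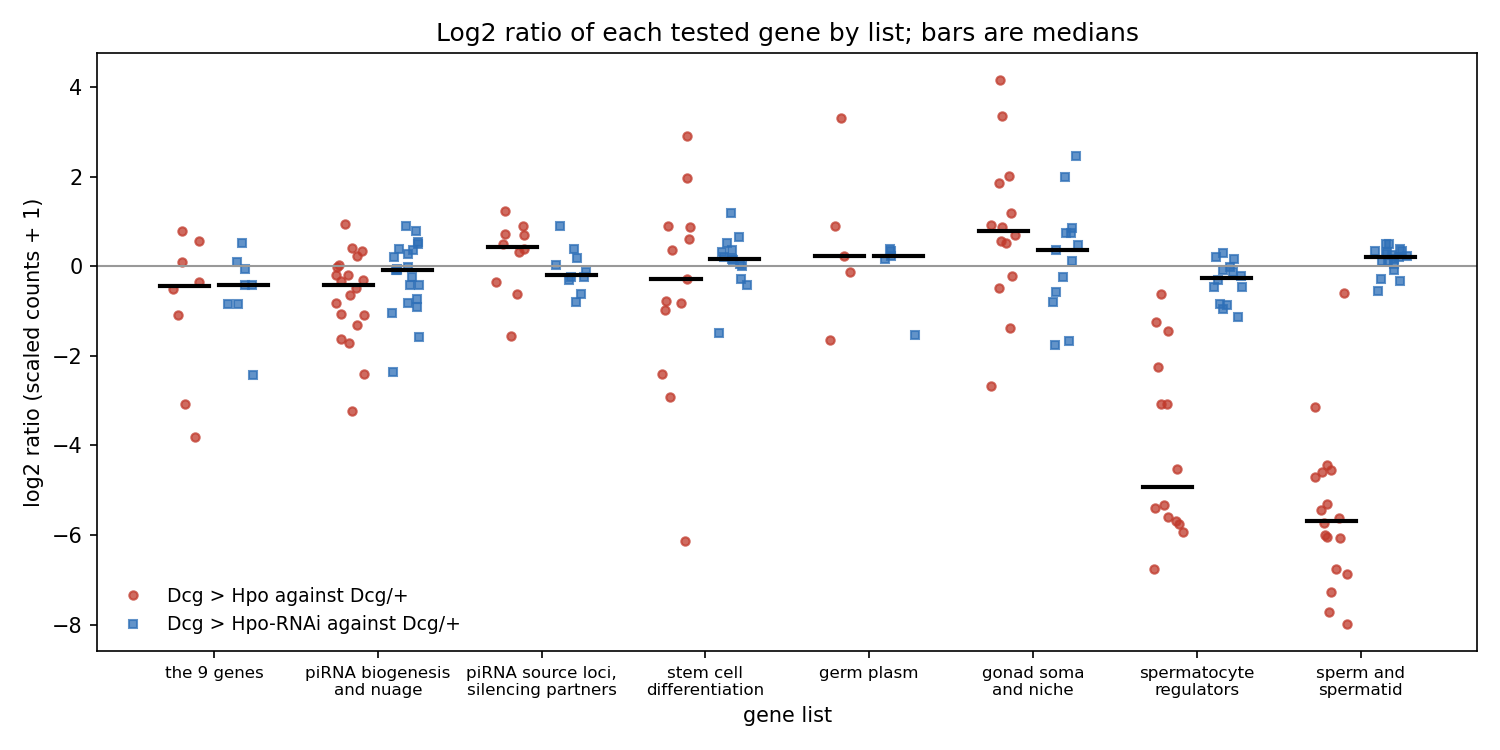
Log2 ratio to Dcg/+ of every tested gene, on counts scaled to a common total plus 1, by gene list, for Dcg > Hpo (circles) and Dcg > Hpo-RNAi (squares); black bars are medians. The spermatocyte and sperm lists lie low in Dcg > Hpo (medians −4.93 and −5.68) and near 0 in Dcg > Hpo-RNAi (−0.26 and 0.21). The 8 tested of the 9 genes have medians of −0.43 and −0.42, with vas (−3.08) and bgcn (−3.80) far lower in Dcg > Hpo. Medians in Dcg > Hpo and Dcg > Hpo-RNAi are −0.42 and −0.09 for piRNA biogenesis, and 0.43 and −0.19 for source loci. They are −0.28 and 0.17 for stem cell differentiation, and 0.78 and 0.36 for gonad soma. The germ plasm list holds genes on both sides of 0.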

How the data were processed

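RNA libraries were prepared with the Lexogen QuantSeq kit by a service company. The authors deposited whole-number read counts for each gene symbol, without normalization, from reads placed on dm6. Neither aligner nor counter nor strand setting is given in the sources used here. The members and the gene lists were chosen with earlier results of these data known. Counts were divided by library totals (CPM is this share scaled to a common total), and ratios carry exact Clopper-Pearson and levels exact Poisson 95% intervals. Log2 ratios used counts scaled to a common total plus 1. Counts of 0 were set to a floor of 3 counts for the fold of aly and for the medians given with that floor. No test between genotypes was made, with 1 library each. Named list genes are those that share a role with a member and up to 4 called genes of largest change per list and comparison. Genes of the gonad soma, dosage and fat body lists are named in part, and tj, osk, otu, pum and the overlap partners were named after their values were seen. Gene symbols were matched to an annotation of dm6, and 4 of 131 list symbols were not found. The steps were tested on simulated data. Python 3.11.15 with scipy 1.17.1, edgeR 4.0.16, DESeq2 1.42.0 and limma 3.58.1 were used, the R packages for other scalings only. A result of the germ plasm list is not reported here.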

Additional observations from a re-analysis of the deposited data

How the results depend on the processing

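vas and bgcn were called lower in Dcg > Hpo against Dcg/+ under every alternative tried, and AGO3 under all but quantile normalization, a 3-fold limit and a minimum of 50 counts, which left 2 members called lower. With a 1.5-fold limit, 1 member (bam) was called higher in that comparison, 3 members (nos, AGO3 and bam) lower in Dcg > Hpo-RNAi against Dcg/+, and 2 members (piwi and bam) higher in Dcg > Hpo against Dcg > Hpo-RNAi. With quantile normalization, 2 members (nos and bam) were called higher in the last comparison, and the median log2 ratio of the members was 0.57 there, beside −0.17. In Dcg > Hpo against Dcg/+ that median was −0.0067 with quantile normalization and −0.128 with a minimum of 50 counts, beside −0.43. With quantile normalization, 6 list genes were called higher in Dcg > Hpo-RNAi against Dcg/+, beside 3. Without the 4 members whose 3′ ends overlap another gene, a choice made after seeing the data, 0 members were called lower in Dcg > Hpo-RNAi against Dcg/+ and 0 higher in Dcg > Hpo against Dcg > Hpo-RNAi. Without the 10 most abundant genes the members took 0.0150%, 0.0179% and 0.0144% of the counts (Dcg > Hpo, Dcg > Hpo-RNAi, Dcg/+). The median of all genes tested in Dcg > Hpo against Dcg/+ was 0.09 by totals and −0.08 with TMM. The cause of these changes was not tested. No paired analysis was possible because each genotype has 1 library, and no library could be left out. Members with under 100 counts have wide intervals. That of aub in Dcg > Hpo against Dcg/+ reached from 0.380 to 1.24, so a difference within it was not detectable at this depth.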

Other observations

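Stellate and Su(Ste) genes are repeats of the male germ line, and piRNAs from Su(Ste) silence Stellate through Aub and AGO3. Their copies are nearly identical, so reads may be split among them, and they were picked after their values were seen. The 15 Stellate rows summed to 0 counts in Dcg > Hpo, 83 in Dcg > Hpo-RNAi and 96 in Dcg/+. The 34 Su(Ste) rows summed to 1 count in Dcg > Hpo, 131 in Dcg > Hpo-RNAi and 104 in Dcg/+. Both were thus near 0 in Dcg > Hpo alone, as vas and bgcn were, while aub, with 22, 24 and 30 counts, was not. The 3′ end of aub overlaps TTLL4A, and whether reads of TTLL4A add to the aub counts was not tested. Silencing of Stellate was not tested either.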
